A study of Bos grunniens with 18 samples.

Results

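The genes described here carry the symbols of the sperm tail's axoneme: axonemal dynein heavy chains (DNAH), intermediate chains (DNAI) and a light intermediate chain (DNALI), dynein assembly factors (DNAAF), cilia and flagella associated proteins (CFAP), dynein regulatory complex subunits (DRC), radial spoke proteins (RSPH) and sperm associated antigens (SPAG). They were chosen by symbol alone, as every entry of the gene table whose name starts with 1 of these 8 prefixes followed by a number. The rule found 100 identifiers of 22183 in the table. These comprised 51 CFAP, 14 DNAH, 11 SPAG, 8 DNAAF, 7 RSPH, 5 DNAI, 3 DRC identifiers and 1 DNALI identifier, and 95 of the 100 passed the filter on low counts. The 5 that did not were CFAP73, CFAP97D2 and further identifiers of CFAP299, CFAP54 and SPAG16. The 100 identifiers stood for 89 symbols, because 9 symbols were each carried by more than 1 identifier. The prefixes cover most but not all of the axoneme, and SPAG is a mixed family. SPAG6, SPAG16 and SPAG17 sit on the central pair of microtubules, whereas SPAG4 is a nuclear envelope protein, SPAG5 a mitotic spindle protein and SPAG9 a kinase scaffold.

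An axoneme is a ring of doublet microtubules around a central pair. Dynein motors fixed to each doublet as outer and inner arms walk along the neighbouring doublet, the nexin-dynein regulatory complex turns that sliding into bending, and radial spokes carry signals between the central pair and the arms. Dynein arms are put together in the cytoplasm by chaperone-like assembly factors before they are carried into the tail. In the testis, sperm tails are built by round and elongating spermatids, the cells that follow meiosis, and many of the genes for tail proteins are already transcribed in spermatocytes.

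Testis tissue came from 9 healthy male yaks (Bos grunniens) of 1 cooperative, removed by castration under anaesthesia, with 3 animals at 6 months, 3 at 18 months and 3 at 4 years of age. The groups differed by age, and the labels name no treatment beside it. Each animal gave 1 library of total RNA depleted of ribosomal RNA, so the libraries of an age differ by animal and the p-values below measure the spread between animals. The libraries held between 22950630 and 33123856 gene counts. Levels are given as CPM, the counts relative to library size after trimmed-mean (TMM) scaling, and comparisons between genes use the deposited FPKM, which is per length of transcript.

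The tissue label fitted its markers. Sertoli cell markers summed to 8139 to 9679 CPM at 6 months and to 1153 to 1216 CPM at 4 years, and Leydig cell markers to 15178 to 21833 and 2433 to 4357 CPM. The summed spermatocyte markers (10 genes) ranged from 11.8 to 24.3 CPM at 6 months, from 599 to 1518 at 18 months and from 1399 to 1573 at 4 years. The summed spermatid markers (12 genes) ranged from 2.2 to 5.49, from 181 to 2997 and from 3187 to 4213 CPM at the same ages. At 4 years against 6 months, 10 of 10 spermatocyte markers and 12 of 12 spermatid markers rose, 9 of 9 Leydig identifiers and 5 of 5 fibroblast markers fell, and 8 of 10 Sertoli identifiers fell. The part of these shifts in the results below was not tested, and in bulk tissue, more cells of a type and more RNA per cell cannot be told apart.

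Nearly all of the axonemal genes rose between 6 months and the older ages. At 4 years against 6 months, 87 of the 95 identifiers tested rose and 2 fell (edgeR quasi-likelihood test, Benjamini-Hochberg adjusted p under 0.05 over 16742 genes). Over all genes tested, 36.7% rose and 37.2% fell. The members' median log2 fold change was 4.57, against -0.06 for all genes tested. At 18 months against 6 months, 78 rose and 1 fell, with a median of 4.16, where 32.7% of all genes rose and 27.1% fell, with a median of 0.02. Without library 1 of 18 months 2 fell, the second being DNAAF10 (-0.61, edgeR adjusted p = 0.0345, against -0.50 and 0.0545 with all libraries). Members with no or almost no counts at 6 months, such as CFAP157, CFAP77, CFAP95 and the tested CFAP299 identifier, passed the filter through the older libraries alone. They could not have been called lower, so their direction was set in advance, also in the counts by subfamily below. The 3 libraries of 4 years did not overlap those of 6 months for 90 of 95 members, and 83% of all genes tested shared that separation. Together the 100 identifiers took 0.114% to 0.126% of gene counts at 6 months and 1.04% to 1.05% at 4 years. At 18 months they took 1% in library 1, 0.39% in library 2 and 0.824% in library 3.

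The size of the rise differed among the subfamilies. The median log2 fold change from 6 months to 4 years was 7.14 for DRC, 6.00 for DNAI, 5.80 for DNAH, 4.81 for the single DNALI gene, 4.55 for SPAG, 4.25 for CFAP, 4.17 for RSPH and 1.57 for DNAAF. Every DNAI, DNALI, DRC and RSPH identifier and all 10 SPAG identifiers tested rose, as did 13 of 14 DNAH, 42 of 47 CFAP and 6 of 8 DNAAF identifiers. A log2 change of at least 5 was reached by 42 members, and one of at least 9 by 10 members. These medians describe the families and were not tested against each other.

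**Figure D1:**
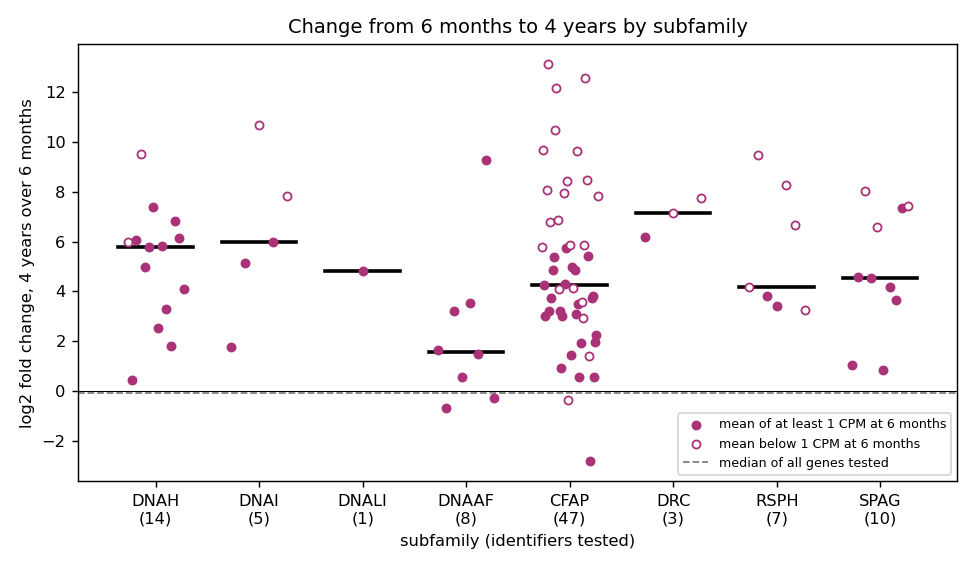
Each point is 1 tested identifier, placed by its log2 fold change from 6 months to 4 years (vertical axis) within its subfamily (horizontal axis); filled points had a mean of at least 1 CPM at 6 months, open points less, black bars are subfamily medians and the dashed line is the median of all genes tested. DNAAF had the lowest median (1.57), and CFAP276 is the lowest point (-2.81).

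The outer arm is driven by heavy chains of which DNAH8 and DNAH17 are the sperm forms, and DNAH5, DNAH9 and DNAH11 are best known from motile cilia of epithelia. All 5 rose by 4 years. DNAH17 stood at 0.211, 0.737 and 0.914 CPM in libraries 1, 2 and 3 of 6 months, at 450, 170 and 410 CPM at 18 months and at 490, 462 and 386 CPM at 4 years. No library of 6 months came near any older library. Its log2 fold change at 4 years against 6 months was 9.49 (SE 0.64, edgeR adjusted p = 3.24e-05), the largest among heavy chains. DNAH8 followed the same course, with 1.27, 2.43 and 1.78 CPM at 6 months, 323, 78.5 and 249 CPM at 18 months and 334, 277 and 315 CPM at 4 years (log2 fold change 7.40, SE 0.59). Its second 18-month library was far below the others, yet well above every 6-month library.

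The epithelial forms rose less and started higher. DNAH9 went from 4.82, 9.71 and 6.22 CPM at 6 months through 42, 28.2 and 35.2 CPM to 42.3, 43.4 and 35.5 CPM at 4 years (log2 fold change 2.55, SE 0.29). The 18-month and 4-year libraries of DNAH9 overlapped. DNAH5 stood at 2.75, 6.46 and 3.75 CPM at 6 months, at 13.3, 6.74 and 6.52 CPM at 18 months and at 17.6, 10.9 and 17.7 CPM at 4 years, a change of 1.83 (SE 0.42, edgeR adjusted p = 0.00379). 18-month libraries 2 and 3 lay just above the highest 6-month library and library 1 well above it, and that comparison did not pass (1.04, SE 0.42, edgeR adjusted p = 0.0565). Per length of transcript, DNAH17 at 31.6 ± 2.50 FPKM and DNAH8 at 23.5 ± 2.22 FPKM (SD, n = 3) stood above DNAH11 at 14.3 ± 3.38, DNAH5 at 4.26 ± 1.36 and DNAH9 at 2.93 ± 0.197 FPKM at 4 years. At 6 months the order was the other way round, with DNAH9 at 0.396 ± 0.152, DNAH5 at 0.391 ± 0.195 and DNAH11 at 0.336 ± 0.095 FPKM above DNAH8 at 0.1 ± 0.0339 and DNAH17 at 0.035 ± 0.0201 FPKM. DNAH9 and DNAH5 did not differ beyond their spread at either age.

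The 18-month level of DNAH11 differed between CPM and FPKM. Its level was 5.66, 8.71 and 4.53 CPM at 6 months, 67.8, 105 and 44.1 CPM at 18 months and 53.9, 75.2 and 57.7 CPM at 4 years. The second 18-month library, the lowest of its age for 89 of the 95 members, held the highest DNAH11 level of all 9 libraries in CPM, at 168% of the 4-year mean. In deposited FPKM the same library stood at 7.76, between 16.6 and 6.29 in libraries 1 and 3 and below the 11, 17.7 and 14.1 FPKM of the 4-year libraries, so its place depended on the measure. The log2 fold changes were 3.52 (SE 0.38) at 18 months and 3.30 (SE 0.38) at 4 years against 6 months. In RefSeq's annotation of the yak genome the span of CDCA7L overlaps that of DNAH11, and CDCA7L also peaked in that library, with 23.4, 72.6 and 49.0 CPM at 18 months against 40.9, 58.2 and 45.0 at 6 months and 31.5, 29.2 and 22.9 CPM at 4 years. How far reads of the overlap entered the DNAH11 count was not tested.

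Inner arm heavy chains rose in 8 of 9 identifiers by 4 years, with a median log2 fold change of 5.84. DNAH2, a heavy chain of the inner arm with paired motors, went from 1.44, 4.12 and 2.29 CPM at 6 months to 130, 88.1 and 124 CPM at 18 months and 155, 144 and 129 CPM at 4 years (5.77, SE 0.40). Its 18-month libraries lay closer together than those of most heavy chains. DNAH1, an inner arm chain whose loss shortens and deforms the human sperm tail, rose from 0.845, 2.60 and 1.37 CPM to 91.7, 48.4 and 79.2 CPM and then 108, 96.1 and 72.3 CPM (5.84, SE 0.47). A short second DNAH1 identifier held 1.45 estimated counts over the 6-month libraries and 108.59 over those of 4 years, a ratio of 84.4 with a 95% counting interval from 14.8 to 3366.

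DNAH14, DNAH6, DNAH3, DNAH7 and DNAH12 rose strongly too. Among the 18-month libraries, the second was the lowest for all 9 inner arm identifiers. DNAH14 rose from 1.69, 2.90 and 2.93 CPM at 6 months to 288, 72.6 and 187 CPM at 18 months and 255, 298 and 302 CPM at 4 years (6.83, SE 0.56). DNAH6 moved from 1.44, 2.17 and 1.74 CPM through 103, 31.2 and 89.1 CPM to 105, 127 and 122 CPM (6.05, SE 0.48). All older libraries of both genes lay above all 6-month libraries. DNAH3 moved from 1.48, 1.3 and 0.64 CPM through 78.3, 13.4 and 31.4 CPM to 69.6, 94.0 and 81.5 CPM (6.15, SE 0.69). DNAH7 moved from 2.20, 4.03 and 2.51 CPM through 85.8, 25.9 and 44.4 CPM to 99.3, 84.8 and 93.7 CPM (4.99, SE 0.48). DNAH3 and DNAH7 belong to inner arms with a single motor, as does DNAH12. DNAH12 had a clear base level at 6 months of 20.6, 21 and 19.2 CPM, then 302, 55.7 and 176 CPM at 18 months and 325, 360 and 363 CPM at 4 years (4.11, SE 0.53). At 35.2 ± 3.08 FPKM (SD, n = 3), DNAH12 had the highest mean of the heavy chains per length at 4 years, although its libraries overlapped those of DNAH17.

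**Figure D2:**
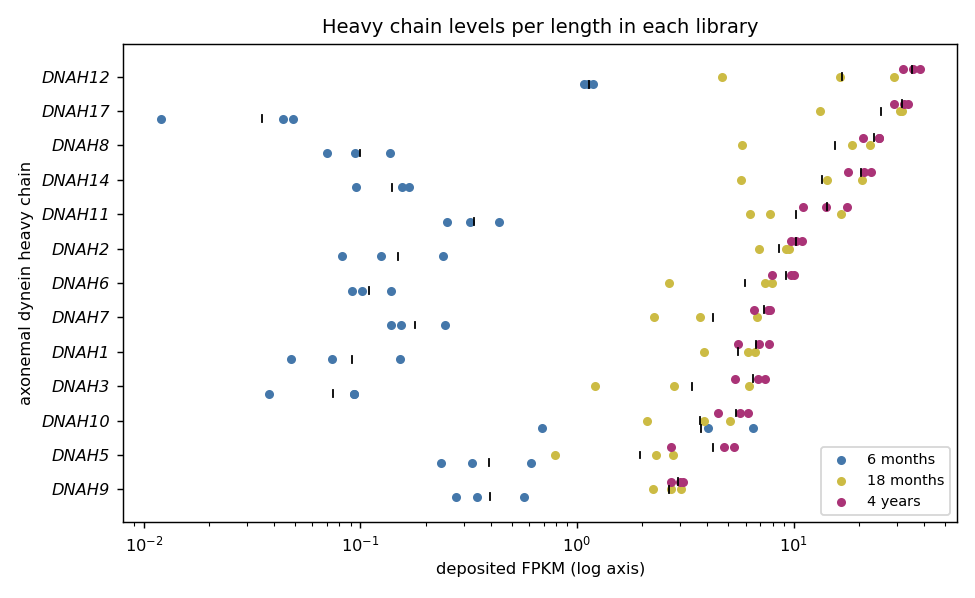
Deposited FPKM (horizontal log axis) of 13 axonemal dynein heavy chains (rows, ordered by 4-year mean) in the 3 libraries of each age; points are libraries, black ticks are means, and the short second DNAH1 identifier is left out. DNAH10 is the row in which the 3 ages overlap, and DNAH17 spans the widest range, from 0.035 FPKM on average at 6 months to 31.6 FPKM at 4 years.

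DNAH10, the partner of DNAH2 in the inner arm with paired motors, was the exception. Its level was 45.8, 8.89 and 80.7 CPM at 6 months, 64.7, 24.3 and 41.6 CPM at 18 months and 71.2, 53.5 and 61.9 CPM at 4 years. 6-month libraries 1 and 3 were as high as older ones, library 2 was the lowest of all 9, and every age overlapped every other. Neither comparison with 6 months passed: the log2 fold change was 0.46 (SE 0.64, edgeR adjusted p = 0.529) at 4 years and -0.05 (SE 0.64, edgeR adjusted p = 0.949) at 18 months. For DNAH2, by contrast, every 6-month library lay far below every older one.

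The intermediate chains tie the heavy chains to the doublet. DNAI1 and DNAI2 belong to the outer arm, and DNAI3 and DNAI4 to inner arms. DNAI3 stood at 0, 0.0434 and 0.137 CPM at 6 months, at 89.2, 22.4 and 58.2 CPM at 18 months and at 95.1, 102 and 111 CPM at 4 years, with 4 counts in all at 6 months and 9058 at 4 years. Its log2 fold change of 10.67 (SE 0.80, edgeR adjusted p = 3.57e-05) was the largest of the dynein subunits. DNAI7 had the highest 6-month level of the family, 5.70, 6.03 and 10.5 CPM, and rose least, through 21.5, 6.02 and 15.1 CPM to 22.2, 27.7 and 26.0 CPM (1.77, SE 0.44, edgeR adjusted p = 0.00564). Its second 18-month library lay among those of 6 months. DNAI1 (7.81, SE 0.65), DNAI2 (5.13, SE 0.42) and DNAI4 (6.00, SE 0.80) rose between these. DNALI1, the inner arm light intermediate chain, went from 1.18, 2.25 and 1.78 CPM through 49.0, 10.7 and 34.8 CPM to 52.1, 50 and 44.8 CPM (4.81, SE 0.55).

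The assembly factors were the subfamily with the lowest median change and the only one of more than 1 identifier with all of its members, 8 of 8, at a mean of at least 1 CPM at 6 months. DNAAF1, a leucine-rich repeat protein needed for both kinds of arm, stood apart from the other 7. It went from 1.73, 2.08 and 4.02 CPM at 6 months to 1489, 504 and 1309 CPM at 18 months and 1762, 1691 and 1404 CPM at 4 years (9.28, SE 0.61, edgeR adjusted p = 3.24e-05). With 741, 719 and 640 FPKM at 4 years, DNAAF1 had the highest level per length of all members and made up 15.9% to 18.3% of their summed FPKM.

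The other assembly factors changed by far less. DNAAF11 (3.55, SE 0.53) and DNAAF6 (3.22, SE 0.50) rose by 4 years, as did DNAAF2 (1.66, SE 0.29), a co-chaperone of heavy chain folding, and DNAAF4 (1.49, SE 0.30). DNAAF5 rose by 0.57 (SE 0.22, edgeR adjusted p = 0.0425), a call that ended when library 2 or 3 of 6 months, library 3 of 18 months or library 1 or 3 of 4 years was left out, with adjusted p-values from 0.0636 to 0.121. DNAAF9 had the highest 6-month CPM of the family and stayed near it, at 67.4, 69.9 and 79.2 CPM, then 66.5, 54.9 and 68.0 CPM, then 60, 60.9 and 60.2 CPM (-0.26, SE 0.15, edgeR adjusted p = 0.148). Its FPKM pointed the other way, with 9.85 ± 0.789 at 6 months and 12.9 ± 0.27 at 4 years (SD, n = 3), so the direction depended on the scaling. DNAAF10, a partner of the chaperone complex that matures large assemblies, fell from 30.2, 29.1 and 35.6 CPM through 25.9, 17.3 and 24 CPM to 21.7, 19.0 and 19.0 CPM (-0.67, SE 0.20, edgeR adjusted p = 0.0130). The groups of 6 months and 4 years did not overlap, but the call ended with scaling by library size alone (-0.37, adjusted p = 0.0847), without 6-month library 3 (-0.57, adjusted p = 0.0523) and without 4-year library 2 (-0.63, adjusted p = 0.0520).

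CFAP276, a protein inside the doublet microtubules, was the only other member to fall. It stood at 732, 662 and 574 CPM at 6 months, at 118, 323 and 172 CPM at 18 months and at 96.0, 96.6 and 88.6 CPM at 4 years. The 3 ages did not overlap, and the second 18-month library was the highest of its age. The log2 fold changes were -1.68 (SE 0.34, edgeR adjusted p = 0.00260) at 18 months and -2.81 (SE 0.35, edgeR adjusted p = 0.000164) at 4 years against 6 months, and both calls held under every alternative fit of the counts. The deposited FPKM gave a smaller fall, from 146, 136 and 110 at 6 months through 52.8, 92 and 55.7 to 47.4, 49.4 and 45.7 at 4 years, also without overlap between the ages. The authors' deposited table gives a log2 ratio of 1.46 for 6 months over 4 years, and their table of 18 and 6 months does not list the gene. At 131 ± 18.8 FPKM (SD, n = 3), CFAP276 had by far the highest level per length of any member at 6 months, ahead of CFAP20 at 34.2 ± 0.837 and SPAG7 at 28.8 ± 1.40 FPKM.

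The rest of the CFAP family spanned the widest range. CFAP74, of the central apparatus, had the smallest p among them and went from 0.338, 0.564 and 0.183 CPM through 105, 41.7 and 90.5 CPM to 113, 90.1 and 93.7 CPM (8.07, SE 0.52, edgeR adjusted p = 3.24e-05). CFAP157, CFAP77 and both CFAP299 identifiers had no count in any 6-month library, and 1 of the CFAP299 identifiers had none at any age. The folds of the other 3 are lower bounds set against 3 counts over the group. At 4 years CFAP77 was at least 926-fold higher, CFAP157 at least 648-fold and CFAP299 at least 149-fold. CFAP95 had 1 count at 6 months and 7568 at 4 years, a ratio of 5863 with a 95% counting interval from 1052 to 231618. CFAP298, a factor of dynein arm assembly, and CFAP36 were high at both ages, with 25 ± 3.31 and 21.7 ± 3.57 FPKM at 6 months and 426 ± 48 and 263 ± 25.3 FPKM at 4 years (SD, n = 3). Next to DNAAF1 they had the highest levels per length of all members at 4 years.

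Within the CFAP family, 9 of 9 tested identifiers of the spoke-base, tether and inner-arm anchor proteins rose by 4 years (median log2 fold change 5.37), among them CFAP43 (6.85), CFAP206 (8.47) and CFAP251 (5.37). Of 18 tested identifiers listed as central apparatus members, SPAG6, SPAG16 and SPAG17 included, 14 rose (median 3.66). That list holds CFAP126 (3.50), whose place in the central apparatus is not established here. The 4 that did not pass were CFAP47, 1 of the CFAP54 identifiers and 2 of the CFAP46 identifiers. CFAP47 stood at 16.4, 16.7 and 20.9 CPM at 6 months, at 20.8, 13.3 and 16 CPM at 18 months and at 19.5, 26.1 and 35.7 CPM at 4 years (0.59, SE 0.27, edgeR adjusted p = 0.0726). Its ages overlapped. DESeq2 (0.76, adjusted p = 0.0207) and scaling by library size alone (0.90, adjusted p = 0.0137) called it higher. The main CFAP46 and CFAP54 identifiers rose by 4.87 (SE 0.38) and 3.09 (SE 0.39), whereas the others stayed below 7 CPM in every library.

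Several of the smaller CFAP calls ended when single libraries were left out, while the estimates moved little. For CFAP20 they ran from 0.52 to 0.64 in those fits, and for CFAP119 they were 1.89 and 1.92, against 1.96 with all libraries. CFAP20, an inner junction protein of the doublet, stood at 66.7, 63.6 and 71.5 CPM at 6 months, 122, 68.4 and 107 CPM at 18 months and 112, 106 and 86.5 CPM at 4 years. The 4-year libraries lay above all 6-month ones (0.59, SE 0.22, edgeR adjusted p = 0.0375), but the call ended without any 6-month library, library 3 of 18 months, or library 1 or 2 of 4 years, with adjusted p-values from 0.0529 to 0.111. The CFAP119 call ended without library 2 or 3 of 6 months (adjusted p = 0.0619 and 0.0587). That of CFAP418 ended without library 1 or 2 of 6 months or 1 or 3 of 4 years (0.0510 to 0.0598), and that of the low CFAP221 identifier without library 1 of 4 years (0.0534).

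The DRC genes, which encode the base plate and lobes of the nexin-dynein regulatory complex, rose together and by the largest median. DRC3 had the smallest p of all members in this comparison. It stood at 0.676, 0.954 and 0.914 CPM at 6 months, at 136, 50.9 and 100 CPM at 18 months and at 122, 122 and 115 CPM at 4 years (7.14, SE 0.42, edgeR adjusted p = 3.06e-05). DRC1, needed to anchor the complex, had the highest 6-month level of the 3, at 1.27, 2.30 and 1.97 CPM, and reached 119, 25.9 and 67.2 CPM and then 133, 136 and 134 CPM (6.18, SE 0.57). DRC7 rose by 7.73 (SE 0.55). No 6-month library of a DRC gene overlapped an older one.

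Radial spokes carry a head made with RSPH1, RSPH4A, RSPH6A, RSPH9 and RSPH10B, and RSPH3 lies in the stalk. All 7 RSPH genes rose by 4 years. RSPH6A, a head protein known from sperm, had the smallest p of the family, with 0, 0.173 and 0.229 CPM at 6 months, 27.5, 16.8 and 33.7 CPM at 18 months and 40.1, 53.1 and 33.6 CPM at 4 years (8.28, SE 0.65, edgeR adjusted p = 3.75e-05). RSPH4A, its counterpart in motile cilia of epithelia, stayed low, with 0.169, 0.347 and 0.0457 CPM at 6 months, 0.995, 0.137 and 0.324 CPM at 18 months and 1.43, 1.74 and 2.41 CPM at 4 years (3.27, SE 0.85, edgeR adjusted p = 0.00679). Per length, RSPH6A stood at 17.1 ± 3.59 FPKM and RSPH4A at 0.762 ± 0.241 FPKM at 4 years (SD, n = 3), while at 6 months both were near 0, at 0.046 ± 0.0416 and 0.0607 ± 0.0503 FPKM. RSPH9 was the most abundant spoke gene at 4 years, at 104 ± 10.4 FPKM, and rose by 9.47 (SE 0.77). RSPH3 had the highest level at 6 months, 4.94, 5.16 and 5.53 CPM, and reached 61.9, 13.8 and 28.5 CPM and then 78.8, 68.6 and 70.2 CPM (3.80, SE 0.49).

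The SPAG genes of the axoneme had larger fold changes than SPAG7 and SPAG9, but not all had larger ones than SPAG4 or SPAG5. SPAG8, a protein inside the doublet microtubules, had the smallest p of the family and went from 0.380, 0.824 and 0.686 CPM through 51.8, 26.5 and 51.8 CPM to 67.3, 76.5 and 39.1 CPM (6.59, SE 0.47, edgeR adjusted p = 3.42e-05). The central pair proteins SPAG17 (8.01, SE 0.84), SPAG6 (7.36, SE 0.75) and SPAG16 (4.16, SE 0.61 for its tested identifier) rose too, and SPAG1, an arm assembly factor, by 4.57 and 3.67 for its 2 identifiers. SPAG9, the kinase scaffold, had the highest CPM of the family at 6 months, with 111, 95.6 and 110 CPM, then 184, 87.8 and 152 CPM and then 194, 189 and 195 CPM (0.87, SE 0.25, edgeR adjusted p = 0.0119). In CPM its second 18-month library lay below all 6-month libraries, but in FPKM, at 16.7 against 14.1, 12.3 and 13.7, above them. SPAG7 rose by 1.07 (SE 0.21), SPAG5 by 4.52 (SE 0.42) and SPAG4 by 7.44 (SE 1.10).

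**Figure D3:**
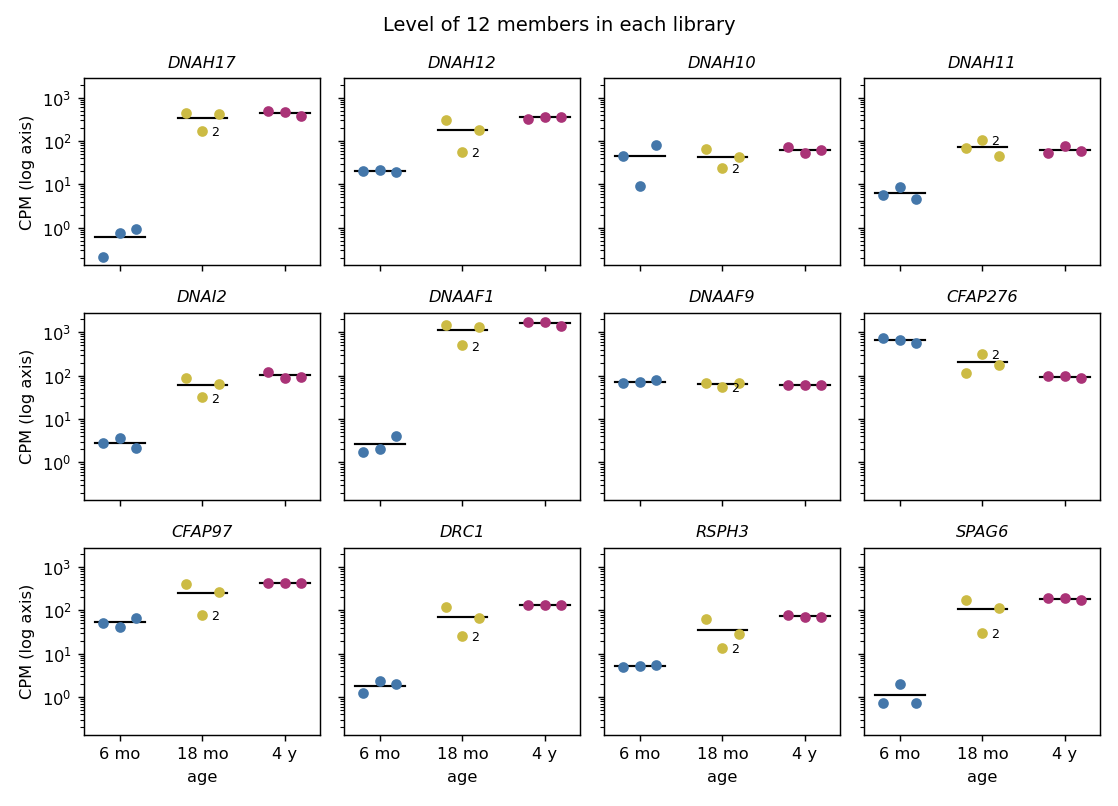
CPM (vertical log axis) of 12 members, 1 panel each, in the 3 libraries of each age (horizontal axis); points are libraries, lines are means, and the digit 2 marks the second 18-month library. That library is the lowest of its age in most panels and the highest in CPM for DNAH11 and CFAP276 (for DNAH11 not in FPKM), and DNAAF9 is close to level across the ages.

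At 6 months, 59 of the 100 identifiers had a mean of at least 1 CPM, a limit chosen for description. They comprised 25 CFAP, 12 DNAH, 8 DNAAF, 7 SPAG, 3 DNAI, 2 RSPH, 1 DRC and 1 DNALI. Their summed level was 1332 to 1447 CPM per 6-month library, of which CFAP276 alone made up 574 to 732 CPM. The other 41 summed to 9.46 to 15.1 CPM. Because the split uses the 6-month values, the change from that age is given as a description only: the median log2 fold change at 4 years was 3.67 for the 59 and 7.58 for the 36 tested others. From 18 months to 4 years, a comparison that holds no 6-month library, the medians were 0.62 and 0.72. With a limit of 0.5 CPM 71 identifiers would count as present, and with 2 CPM 43.

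The 18-month animals differed among themselves more than those of the other ages. The median ratio of the highest to the lowest library over members was 1.81 at 6 months, 3.69 at 18 months and 1.25 at 4 years, against 1.32, 2.13 and 1.29 over all genes tested. Library 2 was the lowest of the 18-month libraries for 89 of 95 members (93.7%, against 42.8% of all genes), and the order was library 1, then 3, then 2 for 82 (86.3%, against 36.3%). As a percentage of the 4-year mean, the members' median level was 95.9% in library 1, 25.9% in library 2 and 66.9% in library 3, while the medians of all genes were 99.2%, 102% and 101%. The exceptions to library 2 as the lowest were CFAP276, 2 CFAP46 identifiers, DNAAF5, DNAH5 and DNAH11.

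Subfamilies differed in the level of that library, which is 1 animal, relative to 4 years. Its median level was 56.5% of the 4-year mean for DNAAF, 36% for RSPH, 33% for DNAH, 25.3% for DRC, 23.8% for DNAI, 23.6% for CFAP, 21.8% for DNALI1 and 17.2% for SPAG. This measure takes no account of the 6-month level. DNAAF includes members that changed little or fell by 4 years, DNAAF9 (90.9%), DNAAF10 (87.2%) and DNAAF5 (130%). Among heavy chains it was 43.8% for the outer arm and 26.4% for the inner arm. Below 10% lay 9 members (9.47%, close to the 6.46% of all genes), among them CFAP97D1 at 3.87%, CFAP107 at 4.99%, CFAP95 at 5.17%, CFAP141 at 5.67% and RSPH4A at 7.35%. In the same library the spermatocyte markers had a median of 48.7% and the spermatid markers of 4.05%. Sertoli markers summed to 4287 CPM there, against 1492 and 2242 CPM in libraries 1 and 3. The part of these marker shifts in the members' levels was not tested.

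**Figure D4:**
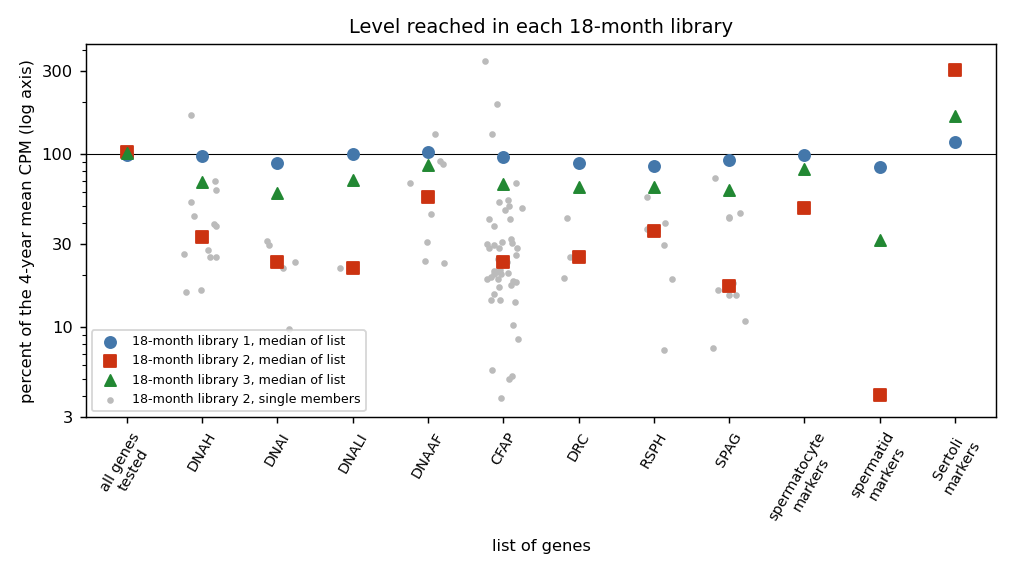
Level of each 18-month library as a percentage of the 4-year mean CPM (vertical axis), by subfamily and by germ cell and Sertoli marker list (horizontal axis); coloured points are list medians for the 3 libraries and grey points are single members in library 2. In library 2 the spermatid markers (4.05%) lie below every subfamily median, and the spermatocyte markers (48.7%) above all of them but DNAAF (56.5%).

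Between 18 months and 4 years no member passed the edgeR test, in which 0% of all genes were called higher and 0.00597% lower. At an unadjusted p under 0.05 there were 6 members (CFAP20DC, CFAP276, CFAP47, CFAP61, RSPH3 and RSPH4A), or 6.32% of those tested, against 21.3% of all genes. DESeq2 called 1, CFAP276, as lower (-1.03, adjusted p = 0.0453), where edgeR gave -1.13 (SE 0.33, adjusted p = 0.174), and DESeq2 called 937 genes in all. The log2 fold change was above 0 for 88 of 95 members, with a median of 0.67 against -0.03 for all genes, and the 2 groups did not overlap for 29 members, against 25.4% of all genes. Without library 1 of 18 months, 34 members were called higher and 1, CFAP276, lower. The same omission raised the calls over all genes, of which 16742 were tested with all libraries, from 1 to 5607. The added calls were therefore not particular to the members.

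Other genes of the pathway moved in the same direction for the most part. At 4 years against 6 months, 8 of 8 docking and ruler genes rose (median 5.52), including CCDC39 (6.75) and CCDC40 (5.24), which space the inner arms and spokes. Of 11 genes listed as further assembly factors 10 rose, with a median of 2.92 over the 11 and with NME8 (9.27) and ZMYND10 (9.10) in front. CCDC32 fell (-1.15), and its part in dynein arm assembly is not established here. Of 16 other nexin and spoke genes 14 rose (median 5.93; ROPN1L, 9.01), as did 10 of 12 other central pair genes (median 4.33). HYDIN, a central pair protein, went from 0.929, 2.69 and 2.56 CPM through 84.6, 26.5 and 53.8 CPM to 84.3, 89.3 and 90.2 CPM (5.42). Genes of intraflagellar transport, the traffic along growing tails, rose in 25 of 27 cases by a lower median of 1.88, and IFT46 fell, from 55.6 to 74.9 CPM at 6 months to 31.3 to 36.1 CPM at 4 years. Of 16 cytoplasmic dynein genes, the relatives that carry cargo in all cells, 7 rose and 4 fell (median 0.42). Their heavy chain DYNC1H1 stood at 404, 423 and 431 CPM at 6 months, at 267, 428 and 335 CPM at 18 months and at 310, 293 and 286 CPM at 4 years (-0.50, SE 0.20, edgeR adjusted p = 0.0434).

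Among 12 genes listed as transcription factors of ciliary genes, 10 rose. TAF7L fell (-1.26), and its part in the control of ciliary genes is not established here. FOXJ1, the factor known for switching on motile cilia genes, stood at 0.127, 1.17 and 0.0914 CPM at 6 months, at 44.4, 9.17 and 37.1 CPM at 18 months and at 49.1, 40.0 and 37.2 CPM at 4 years (6.49, SE 0.94). RFX2, a factor of spermatid differentiation, went from 5.66, 6.42 and 5.81 CPM through 251, 90.9 and 215 CPM to 291, 255 and 205 CPM (5.39, SE 0.40). Both were lowest in the second 18-month library among those of that age. The efferent ducts next to the testis also hold cells with motile cilia. Markers of multiciliated epithelium summed to 1.14 to 2.95 CPM at 6 months and 47.7 to 62.9 CPM at 4 years, FOXJ1 included. Of the 10 markers 6 were tested, and 5 of these rose by 4 years. The median log2 fold change of the 6 was 4.64 and the highest 8.31. Among the markers too low to test, MCIDAS, the defining factor, was at 0 in all libraries but 1 (0.0884 CPM), and CCNO did not exceed 0.137 CPM. Markers of rete testis and efferent ducts summed to 62.8 to 85.7 CPM at 6 months, 184, 68.3 and 134 CPM at 18 months and 225 to 263 CPM at 4 years. Of the 6 tested, EPCAM (5.02) and CA2 (2.03) rose, ESR1 fell (-3.68) and 3 did not pass; PAX8, CDH16 and MUC1 were too low to test. The part of these cells in the members' levels was not tested.

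Back-spliced reads, which mark circular RNAs (circRNAs), gave a readout that the choice of genes did not use, although it comes from the same libraries. Of 73679 circRNAs in the deposited table, 1302 came from member genes (73 symbols), 690 of them from DNAH, 348 from CFAP and 76 from DNAAF genes. They took 0.386% to 0.494% of back-splice reads at 6 months, 1.79%, 0.58% and 1.21% at 18 months and 1.96% to 2.33% at 4 years. Of the 54 that could be tested, from 26 hosts, 23 were higher and 1 lower at 4 years against 6 months. Over all circRNAs tested, 15.2% were higher and 5.8% lower. Of the 23, 13 had no read at 6 months. Those 13 passed the filter on low counts through the older libraries alone and could not have been called lower, so their direction was set in advance. The 1 lower circRNA had no read at 4 years and could not have been called higher. At 18 months against 6 months 7 were higher and none lower (4.72% and 0.542% of all), with 0 of the 7 in CFAP hosts. Most of the 7, from DNAH14 and DNAH9, also had no read at 6 months. These too could not have been called lower, so their direction was set in advance. At 4 years against 18 months edgeR called none in either direction (0% and 0% of all), and 4 had an unadjusted p under 0.05; DESeq2 was not run on circRNAs. CircRNAs of 1 host share exons and are not independent.

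These circRNA counts depended on single libraries. The 23 became 11, 15 and 15 without library 1, 2 or 3 of 6 months, 43 without library 2 of 18 months, and 13 and 14 without library 2 or 3 of 4 years. The 7 became 22 without library 2 of 18 months and between 0 and 3 without any 1 of the other 8 libraries.

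DNAH14 was the host with the most, 131 circRNAs and 4027 back-splice reads, and 9 of its 11 tested circRNAs were higher at 4 years. Most of these 9 had no read at 6 months and could not have been called lower. The DNAH14 circRNA of 712 nucleotides did have reads there, with 3, 5 and 0 at 6 months, 324, 74 and 258 at 18 months and 183, 726 and 408 at 4 years (7.64, SE 1.10, edgeR adjusted p = 0.00617). A DNAH6 circRNA of 526 nucleotides was still low at 18 months, with 5, 5 and 0 reads at 6 months, 14, 14 and 30 at 18 months and 119, 148 and 88 at 4 years (5.46, SE 0.89, edgeR adjusted p = 0.00845). All of its 18-month libraries lay far below those of 4 years. Its difference between 18 months and 4 years, 3.12 (SE 0.78), did not pass over all circRNAs (edgeR adjusted p = 0.444). Of the 23 that were higher, 13 had no read at 6 months and were at least 8.56-fold to at least 42.1-fold higher at 4 years, counted against 3 reads over the group.

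Back-splice reads of DNAAF9 were fewer at the older ages. All its back-splice reads together numbered 104, 103 and 83 at 6 months, 49, 68 and 48 at 18 months and 34, 55 and 16 at 4 years. One DNAAF9 circRNA of 182 nucleotides held 56, 39 and 37 reads at 6 months, 3, 6 and 15 at 18 months and none at 4 years. It was at least 44.5-fold lower at 4 years (edgeR adjusted p = 0.00845). With no read at 4 years it could not have been called higher, so its direction was set in advance. The gene itself did not pass the test. For DNAH10 the back-splice reads followed the gene among the 6-month animals, with 80, 6 and 125 reads, while for DNAH11 the 18-month libraries held 28.2, 65.2 and 58.7 reads per 100 000, with library 2 close to the 60.3 and 64.3 of 4-year libraries 1 and 3.

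**Figure D5:**
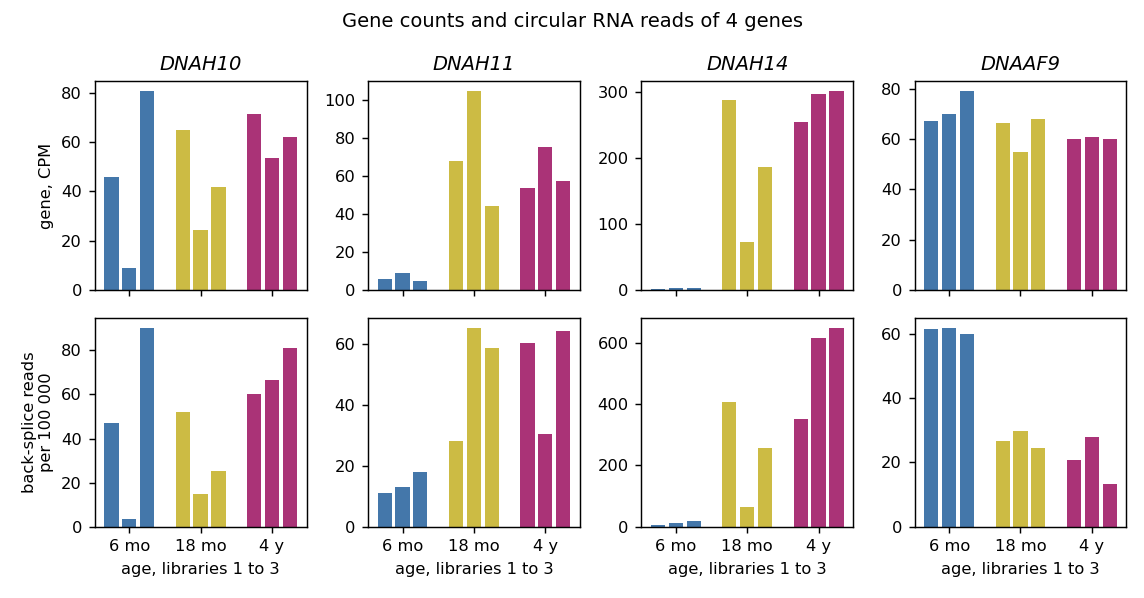
Gene level in CPM (upper panels) and back-splice reads per 100 000 (lower panels) of DNAH10, DNAH11, DNAH14 and DNAAF9 in the 3 libraries of each age (horizontal axis). Bars are single libraries. The second 6-month library is low in both panels of DNAH10 (8.89 CPM and 3.6 per 100 000), and the back-splice reads of DNAAF9 are lower at the older ages.

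Some limits concern single genes. Of the 89 symbols, 88 matched the yak RefSeq table and 22 overlap a protein-coding gene there, unnamed ones included. For 19 of them a named partner also stands in the gene table. Nearly all member identifiers carry ENSBTAG, the prefix of cattle gene models, so overlaps in the yak annotation may differ from those in the annotation counted. Since no source used here states whether counting used strand, levels of overlapping genes are uncertain. The division of counts among identifiers that share a symbol is uncertain too. The authors' deposited table of 4 years and 6 months lists 88 member identifiers, 86 of them also called here, and that of 18 and 6 months lists 80, of which 78 were called. Their table of 4 years and 18 months lists 247 genes and no member. Under scaling by library size alone the median of all genes moved by 0.40 at 18 months and 0.29 at 4 years against 6 months, and by -0.11 between the older ages, so that changes of that size, such as those of DNAAF9 and DNAAF10, hold only relative to the scaling.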

How the data were processed

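Testis RNA of 9 yaks was measured once per animal. Per the submitters' processing notes, fastp 0.18.0, HISAT2 2.1.0 and StringTie 1.3.4 were used and the cattle build UMD3.1 is named. No role or setting is stated for any of them. The authors deposited estimated counts per gene, of which 3137 genes have values that are not whole, and these were rounded; library totals ranged from 22950630 to 33123856. The authors deposited FPKM beside them, used for levels between genes, and counts of back-splice reads per circRNA (119786 to 227150 per library). The authors' deposited tables of log2 fold changes and p-values (FDR) served only for comparison. Groups follow the sample titles; the stage words in the labels do not follow the ages and were not used.

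Genes were filtered with filterByExpr, scaled by TMM and tested in edgeR 4.0.16 (R 4.3.3) by the quasi-likelihood F-test with age as the only factor over all 9 libraries (6 residual degrees of freedom), with Benjamini-Hochberg adjustment over all 16742 genes or 3877 circRNAs and a threshold of 0.05. Scripts were tested on simulated data. Alternatives were DESeq2 1.42.0, library size scaling, no filter, counts not rounded, the replicate number as a block and leaving out each library. Groups with no counts were set against a floor of 3 counts; intervals are 95% and, like floors, cover counting error only. The members and lists were chosen with earlier results of these data known. Named in full were all heavy chains and, per subfamily, the member with the smallest p at 4 years against 6 months, the one with the highest 6-month level, and members that fell; other members are given by counts, ranges or examples. Sequences and genome coordinates were not used here.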

Additional observations from a re-analysis of the deposited data

How the results depend on the processing

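Counts of members that rose at 4 years against 6 months were 87, 89 with DESeq2, 89 with library size scaling, 85 with the replicate block and 83 to 89 without 1 library; at 18 months they were 78, 84, 86, 78 and 77 to 88. Members that fell at 4 years numbered 1 with library size scaling and 1 to 2 without 1 library, and at 18 months 1 to 2. For 4 years against 18 months, 0 to 34 were higher and 0 to 1 lower without 1 library, and DESeq2 called 1 lower. Leaving out the filter or the rounding changed none of these counts. Higher circRNAs numbered 0 to 22 at 18 months and 11 to 43 at 4 years without 1 library, and 0 and 7 with the replicate block. Same-numbered libraries did not deviate together (correlations from -0.135 to 0.104), so the numbers do not pair animals; with the replicate block the 4-year calls of CFAP20 (0.59, adjusted p = 0.0502) and DNAAF5 (0.57, adjusted p = 0.079) ended. Directions turned only for members that did not pass in either fit. At 18 months these were CFAP47 (DESeq2 0.00, library size 0.28, without library 3 of 6 months 0.01, -0.30 to 0.15 without 1 library), DNAAF9 (library size 0.21, without library 2 of 18 months 0.02, and down to -0.24) and DNAH10 (DESeq2 0.07, library size 0.35, replicate block 0.17, without library 2 of 18 months 0.36, -0.54 to 0.67 without 1 library). At 4 years these were a CFAP46 identifier (-0.71 to 0.03 without 1 library), DNAAF9 (library size 0.04) and DNAH10 (-0.02 to 1.19 without 1 library). The cause was not tested. With 3 animals per age, small changes and members near 0 counts at 6 months are measured least precisely.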
